A study of Mus musculus with 2 samples.

Results

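The chemokine system comprised 58 of the 21853 mouse protein-coding genes that were examined, 37 genes for chemokines and 21 for their receptors. They were chosen by symbol alone, as the Ccl, Cxcl, Cx3cl and Xcl ligands, the matching Ccr, Cxcr, Cx3cr and Xcr receptors and the atypical receptors Ackr1 to Ackr4, and no measured value entered the choice. Of the genes with such symbols, 1 receptor gene was left out of the choice. It is not among the 21 and is not analysed here. The assay was DNase-seq, where the enzyme DNase I cuts DNA not wrapped in nucleosomes and sequencing of the cut ends maps accessible chromatin. The tissue was gastrocnemius, a muscle of the calf, from 4-day-old males of the hybrid strain B6CASTF1/J, which carry a C57BL/6J and a CAST/EiJ copy of each autosome. The libraries were biological replicates 1 and 2 of 1 group, each label speaks of 3 males, and both samples carry the same donor entry. There was no second condition, so the values are levels in 2 libraries and no test between groups was possible.

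Chemokines are small secreted proteins that direct the movement of cells along concentration gradients. They are sorted by the spacing of their first cysteines into the CC, CXC, CX3C and C families, and bind G protein-coupled receptors that sit mainly on leukocytes. Atypical receptors bind the same ligands without G protein signalling and remove them from the surroundings. Homeostatic ligands are made steadily and place cells within tissues, while inflammatory ligands are induced by cytokines, injury or infection. In skeletal muscle, chemokines are known for guiding muscle precursors during development and for calling neutrophils and monocytes into injured fibres.

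Replicate 1 had 94295 peaks and replicate 2 had 123291, with a median width of 180 bp in both. Peak densities rose in steps of 0.00675 in replicate 1 and 0.00333 in replicate 2, a ratio of 2.03, so densities are not compared between libraries. Strength is given as a rank within a library, from 0 to 100, where a peak at rank 80 is stronger than 80% of the peaks of that library. A gene had a promoter peak when a peak touched the window reaching 500 bp upstream and downstream of a protein-coding start. All 8 muscle markers had promoter peaks in both libraries, as did 6 of 7 fibroblast markers and 5 of 7 endothelial markers. Promoter peaks were found at 2 of 12 leukocyte markers in replicate 1 and 4 in replicate 2, and Ptprc, Adgre1 and Cd3e had none in either. In a whole tissue, fewer cells with an open promoter and a less open promoter in each cell cannot be told apart.

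Most chemokine system promoters were not in a peak. In replicate 1, 16 of the 58 genes had a promoter peak, 27.6%, where 65.3% of all protein-coding genes did. In replicate 2 it was again 16 of 58, against 67.0% of all genes. Both libraries had a promoter peak at the same 15 genes, 25.9%, against 64.1% of all genes. The peaks that were present were weak for promoter peaks. Their median rank was 45.8 in replicate 1 and 61.1 in replicate 2, while that of all genes with a promoter peak was 90.9 and 92.6. Of the 41 members without a promoter peak, 0 in replicate 1 and 1 in replicate 2 had any promoter base below the deposited false discovery rate (FDR) of 0.05. Among the 6941 genes of the whole annotation without a promoter peak, 103 and 181 had such a base.

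Ligand promoters were in peaks more often than receptor promoters, by count. Peaks in both libraries were found at 12 of 37 ligand genes and 3 of 21 receptor genes. Within the ligands, 7 of 12 CXC genes, 4 of 23 CC genes and 1 of the 2 others had a promoter peak in both. Within the receptors, 1 of 10 CC, 1 of 5 CXC, 0 of 2 other and 1 of 4 atypical genes did. The homeostatic ligands reached 4 of 10 and the inflammatory ligands 6 of 17. Among the homeostatic ligands without a promoter peak, Ccl19, Ccl21a, Ccl21b and Ccl27b have copied promoter sequence, a limit described below. Only the CXC ligands came near the 64.1% of all genes, and no difference between these small groups was tested. The median promoter CpG ratio, a measure explained below, was 0.389 for the CXC and 0.180 for the CC ligands. Where present, CXC ligand promoter peaks had median ranks of 29.1 in replicate 1 and 60.5 in replicate 2. Those of the CC ligands had 78.3 and 84.5. The leukocyte markers stood at 2 of 12 in both libraries, with ranks from 82.97 to 94.0 for Coro1a and Fcgr3, and their part in the receptor counts was not tested.

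**Figure D1:**
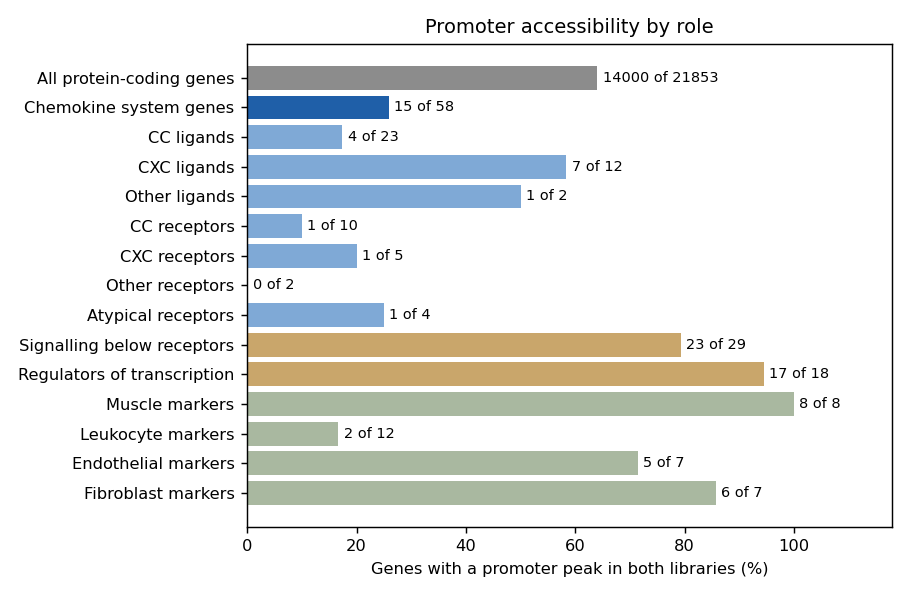
Share of genes with a promoter peak in both libraries, in percent, by role in the chemokine system and for comparison lists; each bar carries its count of genes. The chemokine system genes stand at 15 of 58 and the CXC ligands at 7 of 12, while 8 of 8 muscle markers and 2 of 12 leukocyte markers had such a peak.

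The strongest promoter peak of the system was that of Ccl25, a homeostatic ligand known for guiding T cells to the thymus and small intestine. It had a cut density of 8.79 and a rank of 97.4 in replicate 1, and 6.08 and 98.6 in replicate 2. It is the only member whose promoter peak ranked above the medians of 90.9 and 92.6 for all genes. The peak, at chr8:4325061-4325280 on build mm10 in replicate 1, has its centre 62 bp upstream of the Ccl25 start. It also touches the promoter of Elavl1, which codes for an RNA-binding protein found in most cells, and it lies in an exon of that gene on the other strand. The peak therefore cannot be assigned to Ccl25 alone. Its receptor gene Ccr9 had a promoter peak at rank 20.5 in replicate 1 and 43.9 in replicate 2. That peak too lies by a neighbouring start, since its centre is 19 bp from a start of Slc6a20a in replicate 1 and 4 bp in replicate 2.

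Cxcl12, a homeostatic ligand that stromal cells make and that guides stem cells and muscle precursors, followed with nearly equal ranks of 84.8 and 85.9. Its peak spanned 117168461 to 117168800 on chromosome 6 in replicate 1 and only 117168581 to 117168640 in replicate 2, at the first exon. Ackr3, the atypical receptor that binds and removes Cxcl12, ranked 84.4 and 87.3. Both libraries had the Ackr3 peak at exactly 90203841 to 90204060 on chromosome 1. Ligand and scavenger therefore differed by less than 2 in rank in each library. Bases of the replicate 1 peaks upstream of the start are shown because they carry the features named next, for Cxcl12 from the central 300 bases of the peak. They are in lower case with bases in a footprint of both libraries in capitals. A footprint is a short stretch inside a peak that is shielded from cutting.
Ackr3 promoter, chr1:90203841-90203979, plus strand: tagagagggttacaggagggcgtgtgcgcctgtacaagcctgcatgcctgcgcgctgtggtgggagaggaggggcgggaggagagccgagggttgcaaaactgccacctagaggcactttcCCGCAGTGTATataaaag
Cxcl12 promoter, chr6:117168481-117168534, plus strand: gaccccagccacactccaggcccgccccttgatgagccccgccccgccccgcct
The Ackr3 stretch holds a TATA box match (TATAAA) that begins 8 bp upstream of the first of 2 coding starts of Ackr3. The other start lies downstream within the same peak, as position 90204008 is 2 bp past it, so the match is farther upstream of that start. The match touches footprints of both libraries, and 11 bases of the stretch lay in footprints of both libraries. The Cxcl12 stretch is 77.8% G or C and holds 3 matches to the GC box (GGGCGG on either strand), the motif of Sp1-like factors, at -33, -16 and -11 bp. The matches at -16 and -11 lay inside a footprint of replicate 1. The replicate 2 peak lies wholly downstream of the start and holds none of the 3.

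Ccl2, the main attractant of monocytes, had the highest promoter ranks among the inflammatory ligands, 79.7 in replicate 1 and 85.5 in replicate 2, with densities of 2.15 and 1.63. The peak covered the same bases in both libraries, chr11:82035441-82035640. Its sequence up to the start is shown because the footprints of both libraries meet there just upstream of an A and T-rich stretch.
Ccl2 promoter, chr11:82035441-82035570, plus strand: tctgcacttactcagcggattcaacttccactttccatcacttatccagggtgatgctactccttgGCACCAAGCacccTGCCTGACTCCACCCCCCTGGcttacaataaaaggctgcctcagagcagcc
The 30 capital bases, in footprints of both libraries, form a pair of blocks, and neither block holds a match to any of the 14 motifs searched. The neighbouring gene Ccl7, which attracts monocytes through the same receptor, Ccr2, had a weaker promoter peak at ranks 49.5 and 59.8. A TATA box match begins 30 bp upstream of its start and an AP-1 match (TGANTCA) 69 bp upstream. Ccl2 and Ccl7 are 2 of the 3 members in the lowest 3 of 10 classes of promoter CpG content that had a promoter peak in both libraries.

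Ccl27a, a ligand of skin-homing T cells that binds Ccr10, had a pair of promoter peaks. The stronger lay inside the transcribed region, 406 bp downstream of the nearest coding start, at rank 76.9 in replicate 1 and 83.4 in replicate 2. The weaker lay at the start itself, at ranks 70.1 and 75.7. Repeated sequence was scored only around the most upstream of the 8 coding starts of Ccl27a, a window that holds the weaker peak. Of the 32-base words there, 35.9% occur once in the genome, so reads from copies of the gene could not all be placed. Most of the stronger peak lies outside that window, so this share does not describe it. The sequence of the stronger peak is shown for its GC boxes.
Ccl27a internal promoter peak, chr4:41773601-41773780, minus strand: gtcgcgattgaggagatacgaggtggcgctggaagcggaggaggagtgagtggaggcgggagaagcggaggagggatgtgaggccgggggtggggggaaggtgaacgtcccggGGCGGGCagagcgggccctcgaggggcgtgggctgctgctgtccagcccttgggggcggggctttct
It holds GC box matches at +434 and +488 bp, and the 7 capital bases, in footprints of both libraries, overlap the match at +434. The remaining homeostatic ligand with a promoter peak was Cxcl14, which is known from skin and other epithelia. It had short promoter peaks with centres 34 to 107 bp downstream of the nearest of its coding starts, with ranks of 29.1 in replicate 1 and 35.6 in replicate 2 for the strongest, which was not the same peak in both.

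The membrane-bound ligands Cxcl16 and Cx3cl1 fell between these groups. Cxcl16, which also serves as a scavenger receptor for lipids, ranked 59.3 and 71.5, but its peak lies closer to a start of Zmynd15, at 45 bp in replicate 1, than to its own. Cx3cl1, the fractalkine gene, ranked 62.0 and 61.6, the closest agreement between libraries among the members named (SD 0.262, n = 2). A TATA box match begins 30 bp and a GC box match 51 bp upstream of a Cx3cl1 start.

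The CXC ligands that call in neutrophils, Cxcl1, Cxcl2 and Cxcl5, and the interferon-induced ligand Cxcl10 had weak promoter peaks. Cxcl1 ranked 42.0 in replicate 1 and 68.3 in replicate 2. In replicate 1 its promoter held 3 nested entries of the deposited list, and the strongest peaks of the libraries were not each other's match. Cxcl10 ranked 25.1 and 60.5, the widest gap among the members (SD 25.04, n = 2). Cxcl5 ranked 26.8 and 37.5, with different strongest peaks in the 2 libraries, and Cxcl2 ranked 22.2 and 18.1. These levels lie in the lower part of each library's list for Cxcl2 and Cxcl5, while for Cxcl1 and Cxcl10 the libraries disagree on which side of the middle they fall.

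The 300 bases around the promoter peaks of Cxcl1, Cxcl2 and Cxcl10 in replicate 1 contained matches to the binding motif of NF-kB, the factor that switches on inflammatory genes. The stretches are shown because the first pair share an 11-base palindrome-like block at almost the same distance from the start. Capitals mark bases in NF-kB matches on either strand.
Cxcl1, chr5:90891164-90891194, plus strand, -77 to -47 bp: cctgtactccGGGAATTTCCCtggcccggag
Cxcl2, chr5:90903792-90903822, plus strand, -79 to -49 bp: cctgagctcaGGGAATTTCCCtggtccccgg
Cxcl10, chr5:92348973-92349058, minus strand, -169 to -84 bp: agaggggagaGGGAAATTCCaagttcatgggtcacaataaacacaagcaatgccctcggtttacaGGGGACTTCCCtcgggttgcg
The Cxcl1 match at -67 bp lay inside a footprint of replicate 1 and touched one of replicate 2, where it crosses the edge of the weaker promoter peak. The Cxcl2 match at -69 bp and the Cxcl10 matches lay in no footprint of either library. The Cxcl10 matches lie beyond the edge of its peak in replicate 1, and the match at -150 bp crosses the edge in replicate 2. In replicate 1, the 300-base windows around 3 of the 16 member promoter peaks, 18.75%, held an NF-kB match. The share was 11.6% for the windows of 13144 promoter peaks of all genes. GC boxes were found in 8 of 16, 50%, against 71.7%, and TATA boxes in 3 of 16 against 3.90%. The E-box CAGCTG, bound by muscle regulators, was in 0 of these 16 against 18.4%, while the promoter peak that Ackr4 had in replicate 2 alone held 1 match. With 16 peaks, 1 peak more or less moves a share by several percent, and a match is not evidence of binding.

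Among the receptors, only Ackr3, Ccr9 and Cxcr3 had a promoter peak in both libraries. Cxcr3, the receptor for Cxcl9 and Cxcl10 on activated T cells, ranked 32.9 in replicate 1 and 35.6 in replicate 2, with the peak in an intron 308 bp downstream of the start in replicate 1. Ackr4, which removes Ccl19, Ccl21 and Ccl25, had a promoter peak only in replicate 2, at rank 52.4 and at an internal start. Ackr2, which removes inflammatory CC ligands, had one only in replicate 1, at rank 1.68 and also at an internal start. With a promoter of 200 bp on either side, or with the most upstream start alone, neither Ackr2 nor Ackr4 had a promoter peak.

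**Figure D2:**
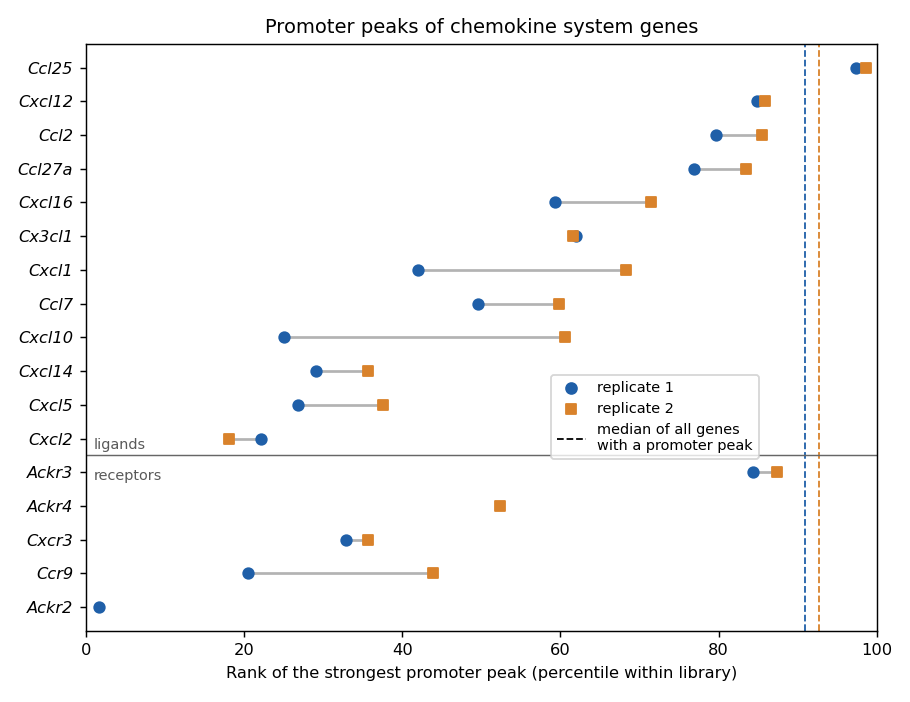
Rank of the strongest promoter peak (horizontal axis, percentile within the library) for each chemokine system gene that had one, in replicate 1 (blue circles) and replicate 2 (orange squares); dashed lines are the medians of all genes with a promoter peak. Ccl25, at 97.4 and 98.6, is the gene to the right of both medians, and Cxcl10 and Cxcl1 show wide gaps between libraries.

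Set beside each other, ligand and receptor genes of known pairs often differed. Ccl2 and Ccl7 had promoter peaks and their receptor gene Ccr2 had none in either library. Likewise Cxcl1, Cxcl2 and Cxcl5 had promoter peaks where Cxcr1 and Cxcr2 did not, Cxcl16 where Cxcr6 did not, and Cx3cl1 where Cx3cr1 did not. Promoter peaks were present at both genes of the pairs Ccl25 and Ccr9, Cxcl10 and Cxcr3, and Cxcl12 and Ackr3. The Ccl25, Ccr9 and Cxcl16 peaks touch promoters of neighbouring genes, as described above, and cannot be assigned to the chemokine system genes alone. For the lymph node pairs Ccl21a and Ccl19 with Ccr7, and Cxcl13 with Cxcr5, neither gene had one.

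The genes that act below the receptors were in promoter peaks more often by count than the members. Of 29 signalling genes, 23 had a promoter peak in replicate 1, 27 in replicate 2 and 23 in both, with median ranks of 94.9 and 93.2. That is 79.3%, against 64.1% of all genes, and the median promoter CpG ratio of the list, a measure explained below, was 0.736 against 0.561 for all genes. The Gi protein subunit gene Gnai2 ranked 96.7 and 97.9, the beta-arrestin gene Arrb2 99.1 in both, and Prex1, which activates the GTPase Rac, 99.7 in both. Genes known mainly from leukocytes varied. Vav1 ranked 52.6 and 49.1 and Pik3r5 86.7 and 89.2. Rac2, Dock2, Was and Pik3cg had a promoter peak only in replicate 2, at ranks from 6.05 to 42.7, and Plcb2 and Rgs1 had none. A list of 18 genes held transcription factors known to act on chemokine genes, with the NF-kB inhibitor gene Nfkbia and the kinase genes Ikbkb and Chuk. Of the 18, 17 had promoter peaks in both libraries, at a median CpG ratio of 0.732. Among them were the NF-kB subunit genes Rela at 92.8 and 93.9 and Nfkb1 at 65.0 and 80.6. The exception was Spi1, which codes for the myeloid factor PU.1 and had a peak only in replicate 2, at rank 46.3. Of 10 further genes tied to chemokines, 9 had a promoter peak in both, at ranks of 31.9 and 31.2 for the platelet chemokine Pf4, and its neighbour Ppbp had none.

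Promoter sequence class followed the same division in the whole genome. Promoters were put in 10 equal classes by their CpG ratio, the count of CpG over that expected from the C and G content. In all genes the share with a promoter peak in both libraries rose from 5.26% in the lowest class to 98.2% in the highest. The members had a median CpG ratio of 0.213, where all genes had 0.561, and 50 of 58 fell in the lower 4 classes. In those classes 7 of the 50 members had a promoter peak in both libraries, 14.0%, against 21.5% of all genes in the same classes. In the upper 6 classes it was 8 of 8 members, against 92.5% of all genes. In the lowest 3 classes it was 3 of 39 members, Ccl2, Ccl7 and Cxcr3, 7.69% against 14.0%. The gap between 25.9% of members and 64.1% of all genes was thus narrower within the classes, and how far CpG content sets it was not tested.

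**Figure D3:**
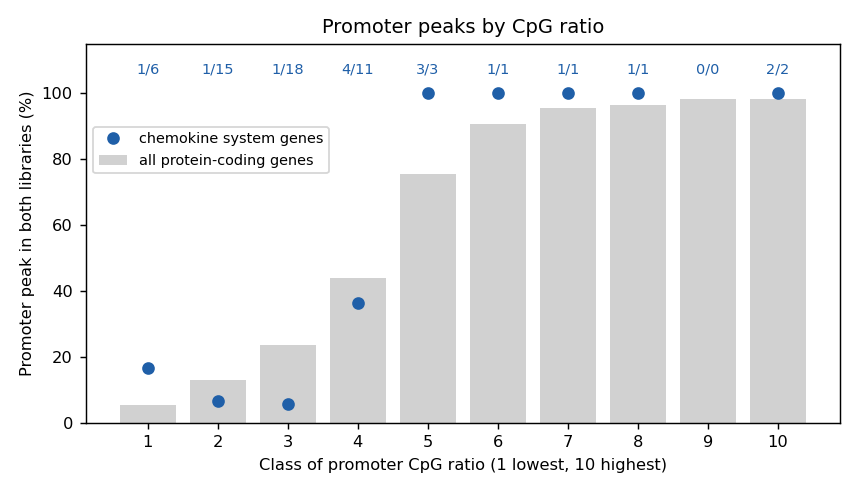
Share of genes with a promoter peak in both libraries, in percent, by class of promoter CpG ratio (1 lowest to 10 highest), for all protein-coding genes (grey bars) and chemokine system genes (blue points, with counts above). Members crowd the lower classes, with 50 of 58 in classes 1 to 4, and all 8 in the upper classes had a promoter peak.

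Several chemokine genes exist as near-identical copies, and promoters of other members also hold words found elsewhere in the genome. Both limit what an absent peak says. Words were scored around the most upstream coding start of each gene alone, so promoters at other starts were not covered. No 32-base word in the promoters of Ccl21b and Ccl27b occurs once in the genome. For Ccl19 the share of words found once was 15.98% and for Ccl21a 27.5%. It was 78.6% for the receptor gene Cxcr5, 84.95% for Ccl20, 85.36% for Xcr1 and 85.57% for Cxcl2 and Cxcl3. Whether gene copies account for the repeated words of Cxcr5, Ccl20 and Xcr1 was not tested. The closest peak to a start of Ccl21a lay 86687 bp away in replicate 1, and that to Ccl21b 481507 bp away. For these genes on chromosome 4, a closed promoter and reads that could not be placed cannot be told apart.

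Away from promoters the system was not short of accessible sites. Distal peaks were centred over 1 kb from all annotated starts, and they were counted when found in both libraries within 50 kb of the nearest coding start of the gene. At least 1 such shared distal peak was found for 48 of the 58 members, against 74.8% of all genes. The median was 2 per member and 2 per gene over all genes. All 21 receptor genes had one, compared with 27 of 37 ligand genes. The 10 members without any were all ligands: Ccl3, Ccl4, Ccl8, Ccl12, Ccl19, Ccl21a, Ccl21b, Ccl27b, Cxcl3 and Cxcl5. Of these, Ccl19, Ccl21a, Ccl21b and Ccl27b lie in the copied sequence on chromosome 4 described above. How well reads could be placed within 50 kb of them was not measured, which limits the comparison of ligands and receptors. Counted once each, there were 142 shared distal peaks, 72 between genes, 51 in introns and 19 in exons. Their median rank, averaged over the libraries, was 62.4, where that of all 45190 shared distal peaks was 56.1. A member was the gene with the nearest coding start for 72 of the 142, and 28 lay near more than 1 member, so nearness does not assign a peak to a gene.

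**Figure D4:**
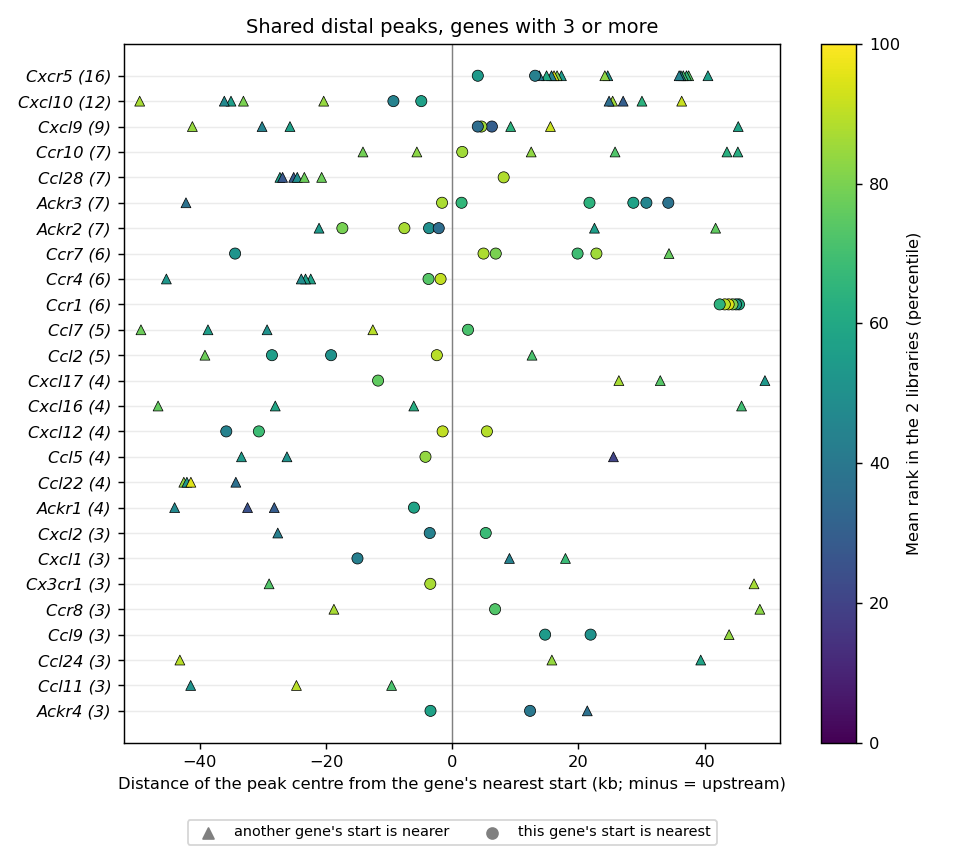
Shared distal peaks by distance from the nearest coding start of the gene (horizontal axis, kb, minus is upstream), for members with 3 or more (number in brackets); colour gives the mean rank in the 2 libraries, circles mark peaks nearest to that gene and triangles those nearer to another. Cxcr5 has 16, mostly nearer to another gene, and the 6 of Ccr1 form a tight group far downstream.

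Distal peaks were strong around several genes whose promoters were open. At Ccl2 a peak 2440 bp upstream ranked 87.1 in replicate 1 and 91.2 in replicate 2, above the promoter peak of the gene in both libraries, and covered the same bases in both. It is shown with the footprints of both libraries in capitals, and again around its NF-kB matches, which run past its right edge, with the matches in capitals. It was chosen after its values were seen, as were the distal sequences of the other genes below except that of Cxcl9 and Cxcl10.
Ccl2 distal peak, chr11:82033041-82033220, plus strand: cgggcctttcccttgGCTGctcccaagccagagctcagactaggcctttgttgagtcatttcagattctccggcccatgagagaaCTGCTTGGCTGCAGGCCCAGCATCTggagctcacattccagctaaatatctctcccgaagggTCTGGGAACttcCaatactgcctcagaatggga
Ccl2 NF-kB matches, chr11:82033181-82033236, plus strand: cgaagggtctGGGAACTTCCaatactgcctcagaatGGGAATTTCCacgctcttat
The match at -2380 bp lay inside a footprint of replicate 2 and touched one of replicate 1, while the match at -2354 bp lay in none. An AP-1 match lies in the same peak at -2479 bp, outside the footprints. Further shared peaks stood 19201 and 28570 bp upstream at mean ranks of 50.8 and 55.7, each with an NF-kB match within its 300-base window. A stronger one centred at -39190 bp, at ranks of 76.2 and 79.2, held a match to the core motif of CTCF, a factor that organises chromatin loops, and no NF-kB match, and the nearest coding start to it is that of Asic2. Downstream, Ccl7 had a shared peak 2499 bp from its start at ranks of 64.4 and 78.4. From there to Ccl8 no shared peak was found, and Ccl11, Ccl12 and Ccl8 had no promoter peak.

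**Figure D5:**
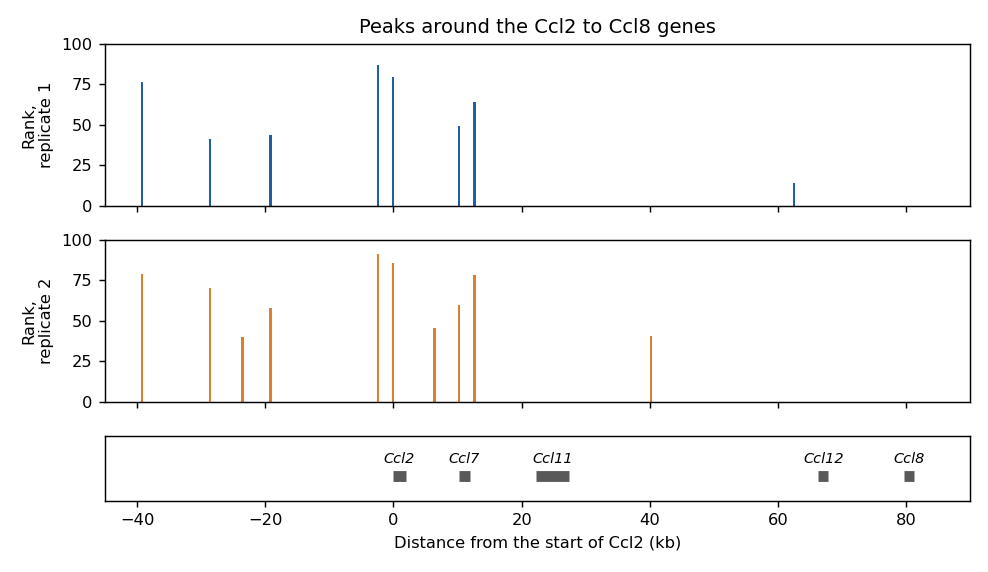
Peaks around the Ccl2 to Ccl8 genes in replicate 1 (top) and replicate 2 (middle), as the rank of each peak within its library against the distance from the start of Ccl2 in kb; gene bodies are at the bottom, and bars are drawn wider than the peaks to be visible. The highest bars in both libraries stand at the upstream peak of Ccl2, 87.1 and 91.2, and at its promoter, and the peaks farther right than the one just beyond Ccl7 are each in 1 library only.

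Cxcl12 had a shared peak 1524 bp upstream at ranks of 88.9 and 92.1 and another 5494 bp downstream at 89.0 and 88.4, both stronger than its promoter peak. Ackr3 had one 1619 bp upstream at 85.9 and 89.0 among 7 shared distal peaks, 6 of them nearest to Ackr3. Cxcl14, with its weak promoter peak, had one 16664 bp downstream at 88.6 and 89.9. The upstream Cxcl12 peak, the Ackr3 peak and the Cxcl14 peak are shown with bases in footprints of both libraries in capitals.
Cxcl12 distal peak, chr6:117166921-117167100, plus strand: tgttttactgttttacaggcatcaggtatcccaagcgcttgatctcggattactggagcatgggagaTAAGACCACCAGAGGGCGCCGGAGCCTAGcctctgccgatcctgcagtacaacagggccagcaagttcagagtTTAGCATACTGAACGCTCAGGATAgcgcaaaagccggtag
Ackr3 distal peak, chr1:90202261-90202460, plus strand: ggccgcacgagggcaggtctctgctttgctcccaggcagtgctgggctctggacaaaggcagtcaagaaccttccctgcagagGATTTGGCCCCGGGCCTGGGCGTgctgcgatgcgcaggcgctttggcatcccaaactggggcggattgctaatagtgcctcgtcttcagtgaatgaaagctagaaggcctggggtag
Cxcl14 distal peak, chr13:56279561-56279720, minus strand: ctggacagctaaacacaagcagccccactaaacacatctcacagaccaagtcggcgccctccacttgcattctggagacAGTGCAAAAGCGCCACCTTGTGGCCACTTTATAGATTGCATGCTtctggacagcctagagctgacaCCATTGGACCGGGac
The long capital block of the Cxcl12 peak contains a CTCF core match inside a footprint of both libraries at -1542 bp. In the downstream Cxcl12 peak, NF-kB matches at 5485 bp (GGGGCGCTCC) and 5537 bp (GGGAGGCTCC) lay inside footprints of both libraries. The pattern searched, GGGRNNYYCC (R is A or G, Y is C or T), is loose and takes in such G and C-rich sequences.

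Among the members with no promoter peak, 11 had 4 or more shared distal peaks, and each is given with its strongest one. Cxcr5, the receptor that leads B cells to follicles, had the most, 16, but most lie in the body of Bcl9l, a cofactor of Wnt signalling, which is also the gene nearest to them. The strongest, in an exon of Bcl9l 16130 bp downstream of a Cxcr5 start, had a mean rank of 93.8, and 2 of the 16 were nearest to Cxcr5. Cxcl9, an interferon-induced ligand of Cxcr3, had 9, and shares its strongest, 15558 bp downstream at ranks of 88.7 and 94.9, with Cxcl10, which had 12 shared distal peaks. The nearest start to that peak is that of Sdad1. It is shown on the strand of both chemokine genes, with footprints of both libraries in capitals.
Cxcl9 and Cxcl10 distal peak, chr5:92312421-92312620, minus strand: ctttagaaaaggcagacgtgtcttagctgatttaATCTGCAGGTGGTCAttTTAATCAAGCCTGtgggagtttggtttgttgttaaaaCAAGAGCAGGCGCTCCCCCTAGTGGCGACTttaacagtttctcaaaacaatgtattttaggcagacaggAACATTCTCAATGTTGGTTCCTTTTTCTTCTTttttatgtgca
Of its 200 bases 90 lay in footprints of both libraries, and 1 of the blocks contains a CTCF core match. A peak inside Cxcl9 itself, 4618 bp downstream of its start, had a mean rank of 85.6.

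Some CC receptor genes without promoter peaks had strong shared distal peaks within 50 kb. Others did not, such as Ccr6, whose strongest had a mean rank of 31.1, and Ccr2, with 1 at 6.79. Ccr1, a receptor for many inflammatory CC ligands, had 6 shared distal peaks, all between 42381 and 45441 bp downstream of its start and all with Ccr1 as the nearest coding gene. The strongest ranked 93.8 in replicate 1 and 94.6 in replicate 2. Ccr4, a receptor of helper and skin-homing T cells, had 6, the strongest in its own intron 1849 bp upstream of the nearest start at 88.9 and 93.0. Ccr7, which brings T cells and dendritic cells to lymph nodes, also had 6, the strongest 4956 bp downstream in its intron at 89.3 and 86.1. Ccr10, the receptor for Ccl27 and Ccl28, had 7, the strongest in its exon 1582 bp downstream at 83.2 and 88.3. Only 1 of the 7, this strongest one, was nearest to Ccr10. The closest peak to a Ccr10 start lay 761 bp away in replicate 1 and 766 bp in replicate 2. With a promoter of 1000 bp on either side, Ccr10 counted as having a promoter peak. A start of Cntnap1 also lies within that window, so the peak cannot be assigned to Ccr10 by nearness alone. The sites of Ccr1, Ccr4 and Ccr7 are shown with bases in footprints of both libraries in capitals.
Ccr1 distal peak, chr9:123924781-123925000, minus strand: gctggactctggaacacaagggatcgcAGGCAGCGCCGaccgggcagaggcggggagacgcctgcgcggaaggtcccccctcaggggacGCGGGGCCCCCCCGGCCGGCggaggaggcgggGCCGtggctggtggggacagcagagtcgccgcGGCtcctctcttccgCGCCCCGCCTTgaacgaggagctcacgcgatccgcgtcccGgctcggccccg
Ccr4 distal peak, chr9:114498321-114498500, minus strand: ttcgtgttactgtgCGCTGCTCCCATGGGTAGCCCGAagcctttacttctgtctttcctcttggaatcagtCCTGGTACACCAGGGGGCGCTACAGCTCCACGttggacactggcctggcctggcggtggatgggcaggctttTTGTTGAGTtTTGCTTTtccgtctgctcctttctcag
Ccr7 distal peak, chr11:99150021-99150220, minus strand: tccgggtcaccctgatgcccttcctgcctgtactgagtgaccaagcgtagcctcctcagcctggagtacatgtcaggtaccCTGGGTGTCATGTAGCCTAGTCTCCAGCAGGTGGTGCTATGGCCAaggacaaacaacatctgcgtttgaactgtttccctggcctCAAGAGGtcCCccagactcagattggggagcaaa
The Ccr1 site is 76.4% G or C with 29 CpG in 220 bases, although it lies more than 1 kb from any annotated start. It holds an NF-kB match made of G and C alone, GGGGGGCCCC on the plus strand, inside footprints of both libraries at 43792 bp. The Ccr4 and Ccr7 sites are 55.6% and 56.0% G or C with 7 and 3 CpG, and the long capital block of the Ccr7 site holds a CTCF core match.

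The remaining genes with at least 4 such peaks were mostly ligands. Ccl28, a mucosal ligand of Ccr10, had 7 shared distal peaks, 6 of them in Tmem267, and the strongest in its own intron 8152 bp downstream at a mean rank of 87.9. Ccl5, which attracts T cells and monocytes, had 4, the strongest 4243 bp upstream at 83.7. Ccl22, a ligand of Ccr4, had 4, with the strongest of any of these genes at a mean rank of 95.2, but with its centre at -41419 bp and closest to Pllp. Cxcl17, a mucosal ligand, had 4, the strongest 26405 bp downstream at 86.8, in an intron of Lipe and nearer to a start of that gene. Ackr1, which carries chemokines across venules, had 4, the strongest 6068 bp upstream at 58.2. Of the members with a promoter peak in 1 library, Ackr2 had 7 shared distal peaks, the strongest 7584 bp upstream at 86.9, and Ackr4 had 3.

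The other members had no promoter peak in either library. They were the ligands Ccl1, Ccl3, Ccl4, Ccl6, Ccl8, Ccl9, Ccl11, Ccl12, Ccl17, Ccl19, Ccl20, Ccl21a, Ccl21b, Ccl24, Ccl26, Ccl27b, Cxcl3, Cxcl13, Cxcl15 and Xcl1. The receptors among them included Ccr2, Ccr3, Ccr6, Ccr8, Cxcr1, Cxcr2, Cxcr6, Cx3cr1 and Xcr1. Over all 41 members without a promoter peak, the median distance from a start to the closest peak was 12810 bp in replicate 1 and 9831 bp in replicate 2. It was under 5 kb for 11 and 13 of them and over 50 kb for 6 and 4.

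Motif matches in the 142 shared distal peaks mostly lay near the shares of all 45190. NF-kB matches were in 17 windows, 11.97%, against 7.75%, and the PU.1 motif GAGGAAGT in 8, 5.63%, against 2.31%. AP-1 matches were in 17, 11.97%, against 10.8%, and E-boxes in 43, 30.3%, against 35.2%. CTCF core matches, searched after the sequences were seen, were in 18, 12.7%, against 11.8%. The other motifs searched, on both strands like the rest, were GAAANNGAA (part of the interferon response element), CCGGAAG (ETS), TTGCNNNAA (C/EBP), TTCNNNGAA (STAT), ACGTG (HIF), GGAATG (TEAD) and TGTGGT (RUNX). Their shares ran from 4.23% for ETS to 17.6% for TEAD in the distal peaks of the members, and from 2.57% to 20.1% in all distal peaks. NF-kB matches on opposite strands can share bases, as at Cxcl1, and a peak counts once for each motif. These shares are descriptions without a test.

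Members lie in runs along the chromosomes. Some runs held promoter peaks and others held none in either library. The CC ligand run on chromosome 11 from Ccl2 to Ccl1 had 2 of 6 promoters in peaks of both libraries and 7 shared distal peaks. The run from Ccl5 to Ccl4 on the same chromosome had 0 of 5, with 4 shared distal peaks. On chromosome 5 the run from Cxcl5 to Cxcl2 had 3 of 5. On chromosome 4 the run from Ccl27a to Ccl21a had 1 of 5 and 1 shared distal peak, in the region of copied sequence described above.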

How the data were processed

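DNase-seq peak, footprint and false discovery rate lists of 2 libraries, all called per library, were used as the authors deposited them on build mm10 per the labels. The deposited peak lists give a cut density (signal) per peak, and the longer list of each library was the main one. The deposited lists of FDR, a q-value, give stretches below 0.05. The deposited footprint lists carry a constant score of 0.01 that no label explains. The names of the aligner and peak caller were not given in the sources used here. Depth in reads is unknown, so no counting interval is given. All densities were whole multiples of 1 step per library (tolerance 0.1 step).

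Peaks were joined in Python 3.11.15 with numpy 2.4.6 to GENCODE M21 starts on GRCm38, after checks of the overlap code on simulated intervals. Peaks were shared when they overlapped by at least 1 bp and were each other's best overlap. Ranks are percentiles within a library. Motifs were searched on both strands in 300 reference bases around each peak centre, and CAST variants were not seen. Sequences come from the reference genome, and stretches annotated as untranslated were left out, so none is printed for the Ccl25 and Cxcl16 promoters and the Cxcr5 site. Every member with a promoter peak is named with its values, as are the 10 others with the most shared distal peaks, ties kept. Some items counted in the totals are not reported by name here. The members, lists and motifs were chosen with earlier results of these data known, and the CTCF motif was added after the sequences were seen. Replicates share a donor entry, so their spread may be partly technical. Alternatives changed 1 choice at a time.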

Additional observations from a re-analysis of the deposited data

How the results depend on the processing

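The 15 members with a promoter peak in both libraries were 14 with 200 bp on either side of a start (without Cxcr3). They were 16 with 1000 bp (with Ccr10, where a start of Cntnap1 also lies in the window). They were 10 in the shorter peak lists and 7 among the strongest 50% of peaks. In the shorter lists, Ccr9, Cxcl2, Cxcl5, Cxcl10 and Cxcl14 were lost. In the strongest 50%, Ccl7, Ccr9, Cxcl1, Cxcl2, Cxcl5, Cxcl10, Cxcl14 and Cxcr3 were lost. Leaving out either replicate gave 16. The members with a shared distal peak numbered 37 to 54 over the alternatives, against 48. The 142 shared distal peaks became 81 within 25 kb, 256 within 100 kb, 90 in the shorter lists and 91 among the strongest 50%. With 1 library alone, where no sharing is required, there were 174 to 240, the higher count without replicate 1. Measured from the most upstream start, an alternative chosen after seeing the data, there were 129. The median promoter rank of 53.4 ranged from 45.8 to 61.1. Ranks fell in the shorter lists, which hold fewer peaks by construction. No paired analysis was possible because there was 1 group and no contrast.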
